A study of Mus musculus with 6 samples.

Results

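Chemokine receptors signal through a small set of shared proteins inside the cell, and 10 genes of that set were described here: Gnai2 and Gnai3, Gnb1 and Gnb2, Arrb1 and Arrb2, Grk6, Pik3cg, Rgs2 and Rgs18. They were chosen by name for their place downstream of the receptors, and all 10 of them had a row in a table of 24421 genes. All 10 had enough reads to be tested, as had 13803 genes in all. The RNA came from bone marrow of C57BL/6 mice labelled Dek -/-, flushed from the femur and passed over magnetic columns that remove lineage-marked cells. Dek encodes a chromatin protein that can also act outside the cell, and the cells of one group were given DEK while those of the other group were given vehicle. There were 3 libraries per group, numbered 1 to 3 in each; the lineage-positive cells that the design also names were not analysed here. The knockout is shared by both groups, so no library has its own Dek function to compare with, and the labels give neither age, dose, length of treatment nor whether the libraries came from different animals. The p-values therefore measure only the spread between these libraries, which may be technical.

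When a chemokine binds its receptor, the receptor loads GTP onto a Gi alpha subunit, which then parts from a beta-gamma dimer. The alpha subunit inhibits adenylyl cyclase, while the free beta-gamma dimer activates phospholipase C beta and the PI3-kinase made by Pik3cg, steps that steer the movement of leukocytes. Brakes of separate kinds end the signal: RGS proteins speed the hydrolysis of GTP by the alpha subunit, and receptor kinases such as GRK6 phosphorylate the receptor so that arrestins can bind and uncouple it. In marrow this machinery acts below CXCR4, which retains progenitors and neutrophils there, and CXCR2, which helps release neutrophils.

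The sequences just before the start sites are shown for the 3 genes with a RefSeq entry at the table's own start site that moved most, in either direction, between libraries of unlike cell content (given below): Rgs2, Grk6 and Gnb1. Each is the 250 bases before the start on GRCm38.p6, which is the mm10 build of the counts, written 5′ to 3′ on the strand of the gene. Capitals mark the letters TGACG, the core of the cAMP response element, and CCAAT, each on either strand (CGTCA and ATTGG).
Rgs2 (chr1:144004150-144004399, minus strand): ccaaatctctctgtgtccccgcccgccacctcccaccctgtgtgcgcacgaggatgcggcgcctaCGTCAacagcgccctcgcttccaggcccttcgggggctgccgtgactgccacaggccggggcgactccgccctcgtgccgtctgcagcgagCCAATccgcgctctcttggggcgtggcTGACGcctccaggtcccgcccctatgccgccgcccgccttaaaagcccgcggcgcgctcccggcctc
Grk6 (chr13:55444822-55445071, plus strand): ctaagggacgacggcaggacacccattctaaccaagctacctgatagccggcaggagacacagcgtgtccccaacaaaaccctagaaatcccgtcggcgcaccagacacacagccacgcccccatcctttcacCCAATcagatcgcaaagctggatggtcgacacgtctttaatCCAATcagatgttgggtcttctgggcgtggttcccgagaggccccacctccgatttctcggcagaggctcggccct
Gnb1 (chr4:155491111-155491360, plus strand): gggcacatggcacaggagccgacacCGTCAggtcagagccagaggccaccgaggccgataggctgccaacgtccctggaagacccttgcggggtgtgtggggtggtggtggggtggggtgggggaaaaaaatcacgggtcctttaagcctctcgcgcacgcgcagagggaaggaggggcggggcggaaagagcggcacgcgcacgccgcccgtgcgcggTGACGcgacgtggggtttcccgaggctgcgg
The Rgs2 window holds TGACG at 185 and 67 bases before the start and CCAAT at 94. The Gnb1 window holds TGACG at 225 and 31 bases before the start and no CCAAT. The Grk6 window holds CCAAT at 117 and 76 bases before the start and no TGACG. Across 32851 RefSeq promoter windows of the same length, 17.8% hold TGACG and 33.8% hold CCAAT. None of the 3 printed windows holds TTGCNNAA, the letters of a C/EBP site, or GAGGAAGT, those of a PU.1 site, which occur in 9.56% and 2.44% of all windows. Rgs2 and Gnb1 share the TGACG core, and their levels moved in opposite directions across the libraries, as described below. These matches describe letters and show no binding.

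Depth ran from 34875736 to 49128378 counts per library, of which the 10 genes took 0.377 to 0.411%. The fewest reads of any of the 10 in any library were 4439, for Rgs18. Both libraries numbered 3 differed from the other 4 in cell content. The 11 neutrophil markers with a row took 5.75 and 6.46% of their counts and 0.636 to 0.857% of the others, while 14 stem and progenitor markers took 0.601 and 0.794% against 0.927 to 1.02%. Mpo made up more of that stem and progenitor share than any other single gene. By the Wilson method, the 95% interval of a share extended no further than 0.0082 percentage points, which is counting error alone. The test between treatments could pass none of 9 cell type lists, since 0.1 is the smallest p possible and the numbers are not paired. It gave exact two-sided permutation p from 0.3 to 1 with 3 libraries per group (adjusted p from 0.9 to 1). It therefore cannot show that cell content was equal. Within equal numbers, 1 list, monocyte and macrophage, had a higher share with DEK in 3 of 3, and 4 lists, eosinophil, basophil and mast cell, megakaryocyte and platelet, and T and NK cell, had a lower share in 3 of 3. In numbers 1, 2 and 3 the T and NK share differed by -0.00026, -0.00049 and -0.0046 percentage points, against -0.27, -0.52 and -0.15 for eosinophils. Single genes lower in 3 of 3 were 1 of 9 for T and NK, 4 of 9 for basophil and mast cell, 6 of 11 for megakaryocyte and platelet, and 9 of 9 for eosinophil. No marker of the neutrophil or stem and progenitor list was at 0 in any library. Kit, a receptor of stem and progenitor cells, stood at 154 to 305 CPM (counts scaled to library size). Of the T and NK list, Cd3e stood at 2.29 to 3.82 CPM and Nkg7, the highest, at 110 to 151 CPM. Cd79b, the highest of the B cell list, stood at 44.2 to 132 CPM. The cells had been depleted of lineage-marked cells, while neutrophil markers were present in all 6 libraries. In the libraries numbered 3, Kit stood at 154 and 158 CPM against 253 to 305 CPM elsewhere. Mpo of the same list stood at 3673 and 4875 CPM against 5220 to 5929 CPM. Cd34, Flt3, Cd48, Meis1, Hlf and Mecom were also lower in both libraries numbered 3 than in any other. Gfi1 of that list went the other way, at 60.9 and 90.1 CPM against 46.2 to 50.1 CPM. Elane, Prtn3, Myb and Slamf1 overlapped between the libraries numbered 3 and the others. Ly6a stood at 170 CPM in DEK library 3 and 41.8 CPM in vehicle library 3, against 34.3 to 51.2 CPM elsewhere. The genes of that list thus did not all move with its summed share. Dek counts cannot check the genotype, since they are summed over the whole gene.

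Across the 10 genes, treatment with DEK gave no difference that passed the test. Of the 10, 0 passed edgeR's quasi-likelihood test (adjusted p under 0.05), 0 had an unadjusted p under 0.05, and DESeq2 and limma-voom also called 0 of 10. Of all genes, edgeR called 0% and limma-voom 0, while DESeq2 called 58 (0.420%), so a count of 0 says nothing particular to these 10. The fitted log2 fold changes, DEK against vehicle, ran from -0.26 for Rgs18 to 0.21 for Gnb2, with 6 genes above 0 and 4 below. Their median was 0.042, against 0.0018 over all genes tested. With the replicate number as a block, 177 genes (1.28%) were called and again 0 of the 10, although Rgs18 and Rgs2 had unadjusted p of 0.0308 and 0.0464 (adjusted p = 0.358 and 0.425, edgeR). The 95% intervals of that fit together spanned folds of 0.684 to 1.35. In that fit alone, folds outside that span lay beyond the interval of each of the 10 genes. Without a block the 95% intervals together spanned folds of 0.363 to 3.20, so larger folds remain possible there. In bulk RNA a difference in the number of cells of a type and a difference in RNA per cell cannot be told apart.

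**Figure D1:**
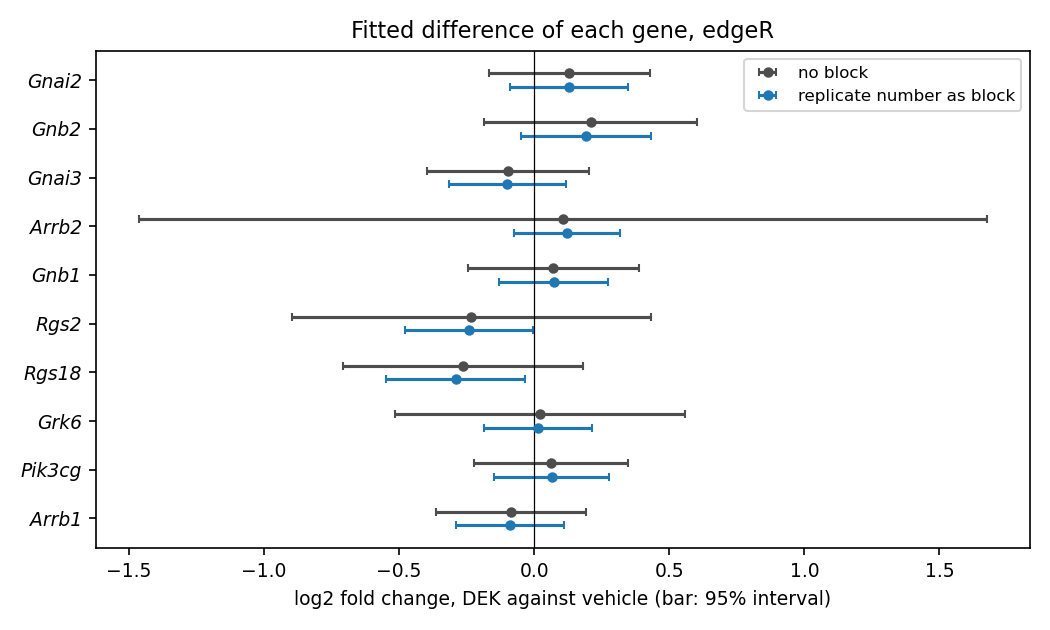
Fitted log2 fold change, DEK against vehicle, of the 10 genes with 95% intervals from edgeR, without a block (grey) and with the replicate number as a block (blue), 3 libraries per group. The unblocked intervals all include 0, and the widest belongs to Arrb2, from -1.46 to 1.68. With the block, the intervals of Rgs18 and Rgs2 lie just below 0 before adjustment.

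Per length of transcript, Gnai2 and Gnb2 led the set. RPKM, reads per kilobase of exon and scaled to library size, averaged 646 for Gnai2 over the 6 libraries, 294 for Gnb2, 132 for Gnai3, 113 for Arrb2, 109 for Gnb1, 105 for Rgs2, 68.3 for Rgs18, 49.7 for Grk6, 42.6 for Pik3cg and 32.6 for Arrb1. Gnai2 and Gnb2 held the first and second place, and Arrb1 the last, in each of the 6 libraries. The ranges of Gnai2 (585 to 705 RPKM), Gnb2 (249 to 361 RPKM) and Gnai3 (115 to 143 RPKM) did not meet, nor did those of Pik3cg (39.5 to 45.9 RPKM) and Arrb1 (28.7 to 34.7 RPKM). Every other pair of neighbours in this order overlapped, from Gnai3 down to Pik3cg. The place of Arrb2 in the order rests on the libraries numbered 3, at 199 and 211 RPKM, since the other 4 had 62.9 to 70.4 RPKM. Gnai2 ranked 75th by RPKM among the 13803 genes tested, and even Arrb1 ranked above 80.9% of them.

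**Figure D2:**
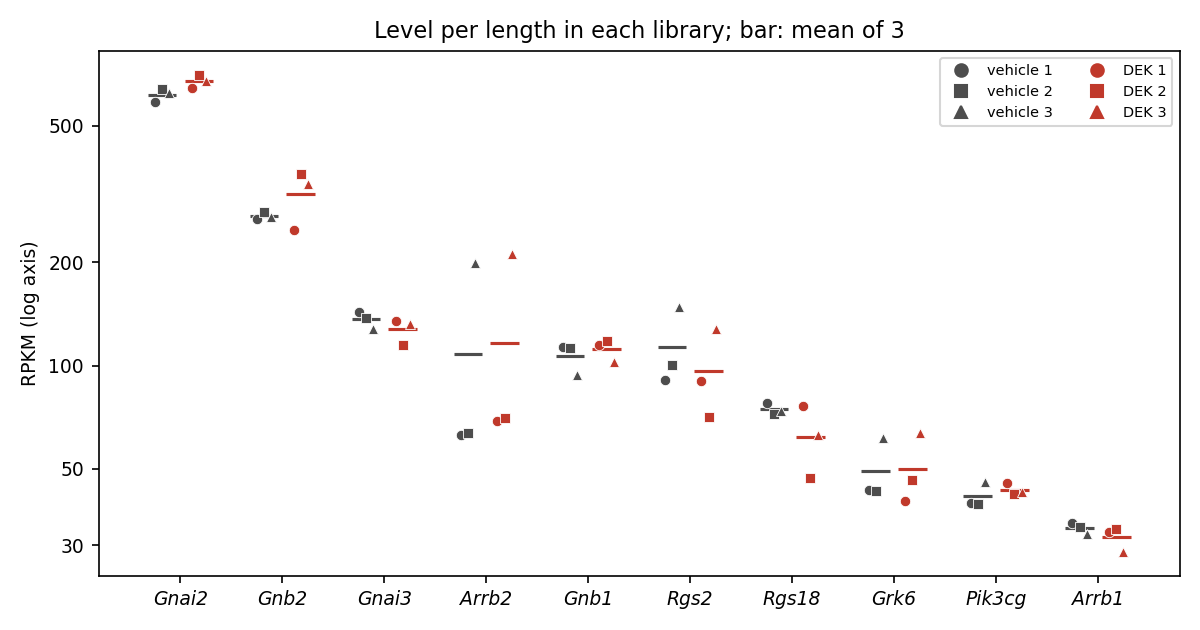
Level per length (RPKM, log axis) of the 10 genes in each library, ordered by their mean; grey for vehicle, red for DEK, symbols for the replicate number, bars for the mean of 3 libraries. Gnai2 and Gnb2 stand highest, and the triangles of number 3 stand clear of the other libraries for Arrb2, at 199 and 211 RPKM.

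Gnai2 (chromosome 9, 107614138 to 107635342, minus strand) encodes the main Gi alpha subunit of leukocytes. It stood at 1273, 1398 and 1356 CPM in vehicle libraries 1, 2 and 3 and at 1399, 1535 and 1473 CPM in DEK libraries 1, 2 and 3. The lowest DEK library lay just above the highest vehicle library, and Gnai2 was the only one of the 10 genes (1 of 10) whose groups did not overlap, where 7.19% of all genes had groups that did not (3.78% higher and 3.41% lower with DEK). Vehicle averaged 1342 ± 63.6 CPM, and DEK averaged 1469 ± 68.3 CPM (SD, n = 3), a log2 fold change of 0.13 ± 0.12 (SE; adjusted p = 0.9999, edgeR). The differences within equal numbers were 0.14, 0.13 and 0.12 on the log2 CPM scale, a narrow spread around a small value.

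Gnai3 (chromosome 3, 108107275 to 108146152, minus strand), the closely related Gi alpha subunit, had 470, 450 and 420 CPM with vehicle and 442, 376 and 433 CPM with DEK. The groups overlapped, and DEK library 2 was the lowest of the 6. The log2 fold change was -0.10 ± 0.12 (SE; adjusted p = 0.9999, edgeR). Gnai1, the close relative of both, did not reach the filter, at 0.067 to 0.208 CPM, so Gnai2 and Gnai3 carried nearly all transcripts of these 3 genes. Per length, Gnai2 exceeded Gnai3 4.08, 4.68 and 4.86 times with vehicle and 4.75, 6.13 and 5.11 times with DEK. This ratio does not depend on library scaling and was higher with DEK in each equal number, by 0.22, 0.39 and 0.07 on the log2 scale, although the groups overlapped.

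Gnb1 and Gnb2 encode the beta subunits that form dimers with a gamma subunit. Gnb2 (chromosome 5, 137528129 to 137533229, minus strand) had 421, 442 and 429 CPM with vehicle and 393, 569 and 532 CPM with DEK. DEK libraries 2 and 3 lay above and DEK library 1 below all vehicle libraries, so the direction differed between equal numbers. Its log2 fold change, 0.21 ± 0.17 (SE; adjusted p = 0.9999, edgeR), was the highest of the set. It was 0.10 without DEK library 2 and 0.35 without DEK library 1. The microRNA gene Mir6418 overlaps 30 exon bases of Gnb2 (1.90%) on the same strand. Gnb1 (chromosome 4, 155491361 to 155559269, plus strand) had 357, 353 and 295 CPM with vehicle and 362, 370 and 323 CPM with DEK, with overlapping groups and a log2 fold change of 0.07 ± 0.13 (SE). It was lowest in the library numbered 3 of each group, with log2 CPM differences of -0.27 (vehicle) and -0.18 (DEK) from the mean of numbers 1 and 2. Per length, Gnb2 exceeded Gnb1 2.16 to 3.28 times across the 6 libraries.

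Arrb2 (chromosome 11, 70432580 to 70440828, plus strand) encodes beta-arrestin 2, which binds phosphorylated receptors and ends their coupling. It stood at 125, 127 and 395 CPM with vehicle and at 137, 140 and 420 CPM with DEK. Both libraries numbered 3 were about as high as each other and far above the other 4, and the groups overlapped. Number 3 exceeded the mean of numbers 1 and 2 by 1.65 in log2 CPM among vehicle libraries and by 1.63 on average over both groups. That shift was larger in size than the shift of 94.3% of all genes tested. Neutrophil markers took 6.46 and 5.75% of counts in these 2 libraries against 0.636 to 0.857% elsewhere, and their part in the level of Arrb2 was not tested. The difference between treatments was far smaller, at 0.13, 0.14 and 0.09 within equal numbers, with a log2 fold change of 0.11 ± 0.65 (SE; adjusted p = 0.9999, edgeR). With the number as a block the estimate was 0.12 ± 0.09 (SE), and without both libraries numbered 3 it was 0.14 ± 0.11 (SE). The group means were 216 ± 156 CPM for vehicle and 232 ± 162 CPM for DEK (SD, n = 3).

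Arrb1 (chromosome 7, 99535486 to 99606771, plus strand), which encodes beta-arrestin 1, did not share that pattern. It had 247, 240 and 230 CPM with vehicle and 233, 238 and 204 CPM with DEK, so number 3 was the lowest library of each group. The groups overlapped, and the log2 fold change was -0.09 ± 0.12 (SE; adjusted p = 0.9999, edgeR). The balance of the arrestins therefore differed by number. Per length, Arrb2 exceeded Arrb1 1.81, 1.88 and 6.16 times with vehicle and 2.10, 2.10 and 7.36 times with DEK. Within equal numbers this ratio was higher with DEK by 0.21, 0.16 and 0.26 on the log2 scale, and the groups overlapped.

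**Figure D3:**
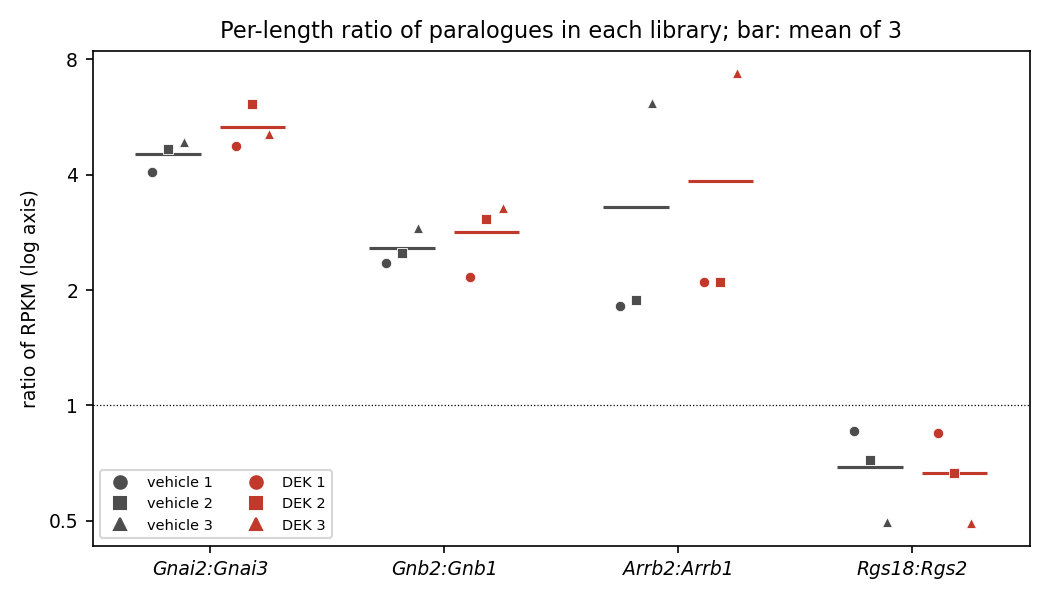
Per-length ratio of related genes (RPKM over RPKM, log axis) in each library, grey for vehicle, red for DEK, bars for the mean of 3 libraries. The ratio of Arrb2 to Arrb1 is 6.16 and 7.36 in the libraries numbered 3 and 1.81 to 2.10 in the other 4, and the ratio of Rgs18 to Rgs2 is lowest in the libraries numbered 3.

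Grk6 (chromosome 13, 55445072 to 55460927, plus strand) encodes a kinase that phosphorylates active chemokine receptors, CXCR4 among them, and so prepares them for arrestin. It had 150, 149 and 212 CPM with vehicle and 140, 160 and 220 CPM with DEK. Like Arrb2, it was higher in number 3 of both groups, by 0.50 and 0.55 on the log2 CPM scale, a shift larger than that of 67.4% of genes. Its log2 fold change was 0.02 ± 0.22 (SE; adjusted p = 0.9999, edgeR), the smallest in size of the 10. Across the 6 libraries Grk6 and Arrb2 correlated with r = 0.97 in log2 CPM, a description that rests on the libraries numbered 3. Grk6 was not the most abundant kinase of its family: Adrbk1, which encodes GRK2, averaged 188 RPKM against 49.7 RPKM for Grk6.

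Pik3cg (chromosome 12, 32173397 to 32208649, minus strand) encodes the catalytic subunit of the PI3-kinase that beta-gamma dimers switch on. It had 277, 274 and 319 CPM with vehicle and 317, 294 and 297 CPM with DEK. The 6 values lay close together, within 0.22 on the log2 scale, and no other gene of the set had as narrow a range. The log2 fold change was 0.06 ± 0.12 (SE; adjusted p = 0.9999, edgeR). Its regulatory partner Pik3r6, which links the enzyme to beta-gamma, had 46.3, 44.2 and 64.2 CPM with vehicle and 58.0, 81.6 and 85.3 CPM with DEK. That difference did not pass either fit (adjusted p = 0.9999 without and 0.0538 with the number as a block, edgeR), and in the second its log2 fold change was 0.54.

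The RGS genes of the set, Rgs2 and Rgs18, lie on chromosome 1 on the minus strand, 749 kb apart, with Rgs13, Rgs1 and Rgs21 between them. Rgs2 (143999338 to 144004149), whose product restrains Gq signalling, had 273, 302 and 446 CPM with vehicle and 272, 213 and 384 CPM with DEK. Number 3 was the highest library of each group, by 0.64 and 0.67 on the log2 CPM scale, and the groups overlapped. Vehicle averaged 340 ± 92.7 CPM and DEK 290 ± 86.8 CPM (SD, n = 3). The log2 fold change was -0.23 ± 0.28 (SE; adjusted p = 0.9999, edgeR). The differences within equal numbers were -0.0023, -0.51 and -0.22, so number 1 showed next to none. Without vehicle library 3 alone, which leaves the high DEK library 3 without its counterpart, the log2 fold change was 0.013. Without both libraries numbered 3 it was -0.24, and with the block but without number 2 it was -0.098.

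Rgs18 (144752841 to 144775421), an RGS gene strongly expressed in platelets, megakaryocytes and myeloid progenitors, had 144, 135 and 137 CPM with vehicle and 142, 87.5 and 117 CPM with DEK. The vehicle libraries lay close together, the DEK libraries were spread out, and DEK library 1 lay within the vehicle range. Vehicle averaged 139 ± 5.10 CPM and DEK 115 ± 27.4 CPM (SD, n = 3). Its log2 fold change was -0.26 ± 0.19 (SE; adjusted p = 0.9999, edgeR), the lowest of the set. The differences within equal numbers were -0.02, -0.62 and -0.23, and without number 2 the log2 fold change was -0.11 with the block, so number 2 carried the larger share. Megakaryocyte and platelet markers took 0.0638 to 0.0753% of counts with vehicle and 0.0555 to 0.0661% with DEK, lower in 3 of 3 equal numbers. Their share differed by -0.0092, -0.0035 and -0.0098 percentage points in numbers 1, 2 and 3. Of the 11 single genes, 6 were lower and 0 higher with DEK in 3 of 3, and their part in the level of Rgs18 was not tested. Rgs18 did not share the shift of Rgs2 in number 3, at -0.03 and 0.07, and the per-length ratio of Rgs18 to Rgs2 was 0.857, 0.722 and 0.496 with vehicle and 0.845, 0.666 and 0.493 with DEK.

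**Figure D4:**
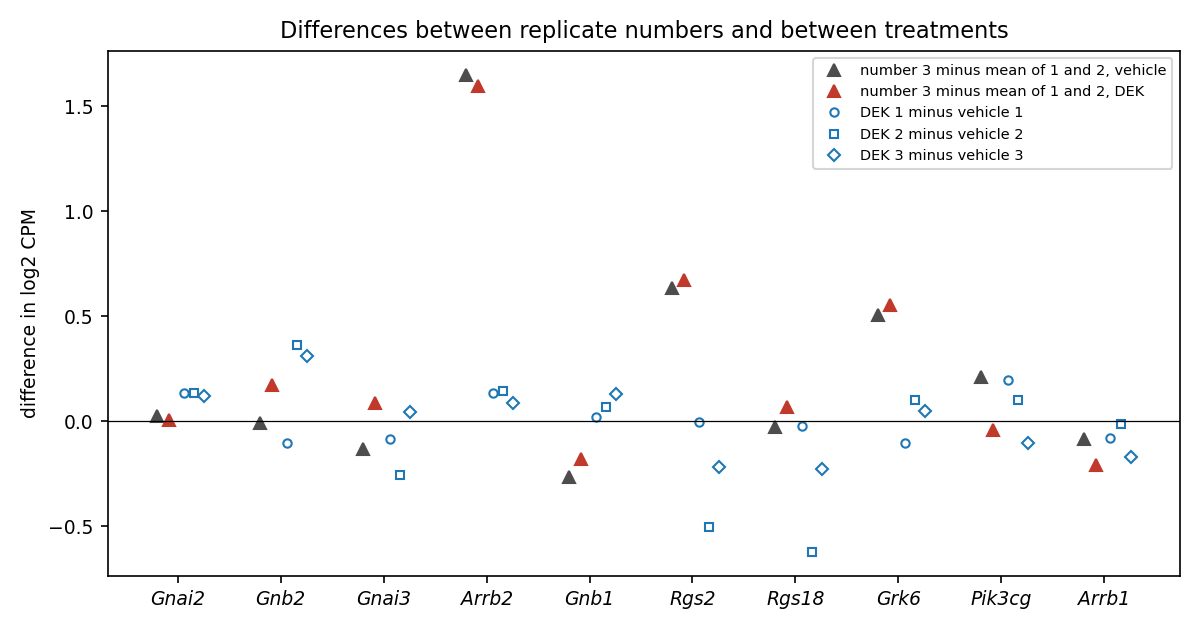
Differences in log2 CPM for each gene: number 3 minus the mean of numbers 1 and 2 in each group (filled triangles), and DEK minus vehicle within each equal number (open blue symbols). Arrb2, Rgs2 and Grk6 stand 0.50 to 1.65 above 0 by number, and the treatment differences of these 3 genes range from -0.51 to 0.14.

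Considered together, 6 of the 10 genes had the same direction in all 3 equal numbers, where 34.2% of all genes did. They were Gnai2, Gnb1 and Arrb2, higher with DEK, and Arrb1, Rgs2 and Rgs18, lower with DEK. The values behind this count are small, and none passed the test. The genes also differed in which other genes they resembled. Among the 9130 genes that averaged 10 CPM or more, those whose log2 CPM correlated best over the 6 libraries were Pfkfb4 and Cd177, a surface antigen of neutrophils, for Arrb2 (r = 0.9989 and 0.9987). They were Rnf44 and Safb2 for Grk6, Cep120 and Trappc6b for Rgs2, Tug1 and Exoc5 for Rgs18, Mad2l2 and Extl3 for Gnb1, Esrra and Cyba for Gnb2, Sra1 and Prelid1 for Gnai2, Rmnd5a and Gimap9 for Gnai3, Nudt2 and Pitrm1 for Arrb1, and Tyms and Ccdc59 for Pik3cg. With 6 libraries that share 3 numbers and so many genes to choose from, such correlations describe these libraries only.

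The rest of the pathway was read from 7 lists of related genes, of which 91 were tested. Without a block, 0 of the 91 passed (edgeR; 3 with an unadjusted p under 0.05; DESeq2 and limma-voom 0). With the number as a block, 2 were higher and 0 lower with DEK, at 91 genes tested, where 0.869% of all genes were called higher and 0.413% lower. They were Gngt2, a G protein gamma subunit, and Cx3cr1, the fractalkine receptor of monocytes. Gngt2 (chromosome 11, 95842295 to 95845731, plus strand) had 65.1, 75.8 and 57.1 CPM with vehicle and 86.0, 120 and 83.6 CPM with DEK, and all DEK libraries lay above all vehicle libraries. It rose 1.45-fold in that fit (log2 fold change 0.54 ± 0.10, SE; adjusted p = 0.0166, edgeR), and without number 2 the fold was 1.40 and no longer called (adjusted p = 0.518, edgeR). This value is uncertain, because 35.3% of its exon bases overlap Abi3 on the opposite strand and the counting did not use strand. Abi3 did not pass, at 0.50 in log2 fold change with the block (adjusted p = 0.0928 by edgeR). Cx3cr1 had 116, 109 and 25.8 CPM with vehicle and 189, 173 and 36.5 CPM with DEK, lowest in number 3 of both groups, where monocyte and macrophage markers took 0.622 and 0.643% of counts against 0.799 to 0.960% elsewhere. Within equal numbers these markers took 0.799, 0.885 and 0.622% with vehicle and 0.960, 0.950 and 0.643% with DEK, higher in 3 of 3. Of the 12 single genes, 2 were higher and 4 lower with DEK in 3 of 3, and their part in the level of Cx3cr1 was not tested. Cx3cr1 rose 1.54-fold with the block (adjusted p = 0.00827, edgeR), and without number 2 the fold was 1.54 and not called (adjusted p = 0.483, edgeR), in a fit that called 0 of 14013 genes.

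By family, 0 of 10 other alpha subunits passed either fit (median log2 fold change -0.13 without a block), and the lowest p among them was that of Gnaq, the Gq alpha subunit, at -0.22. Of 10 other beta and gamma subunits, 1 rose with the block, Gngt2, and the list median was 0.0060 without it. Gng10 and Gngt2 were the most abundant gamma genes per length, at 119 and 95.7 RPKM. Their order is uncertain, because 35.3% of the exon bases of Gngt2 overlap Abi3 and its full length was used. Of 5 other receptor kinases, 0 passed (median 0.026), with the lowest p for Grk4 at 2.80 CPM with vehicle. Of 9 other RGS genes, 0 passed (median 0.15), with the lowest p for Rgs3. Rgs10 averaged 152 RPKM and Rgs19 86.1 RPKM, so Rgs2 and Rgs18 were neither the only nor the highest RGS transcripts. Of 6 modulators of G proteins 0 passed (median -0.043, lowest p for Gpsm2), and of 31 effectors 0 passed (median 0.019, lowest p for Pik3r6). Among 20 chemokine receptors 1 rose with the block, Cx3cr1, with a median of 0.088 without it, and the lowest p without a block was that of Ccr3, the eotaxin receptor, which had a log2 fold change of -0.50. Eosinophil markers, a list that holds Ccr3, took 1.45, 1.36 and 0.456% of counts with vehicle and 1.18, 0.841 and 0.305% with DEK, and 9 of the 9 genes were lower with DEK in 3 of 3 equal numbers. Their part in the level of Ccr3 was not tested. The median over all genes tested was 0.0018.

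**Figure D5:**
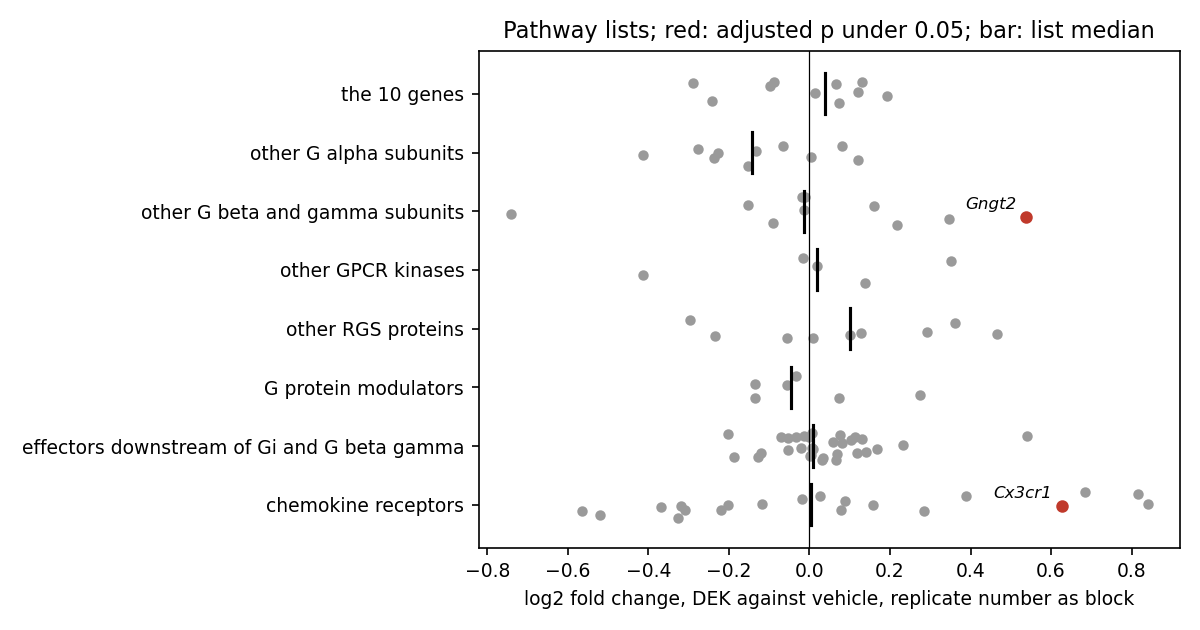
Log2 fold change, DEK against vehicle, with the replicate number as a block, for each tested gene of the 10 and of the 7 related lists; bars mark list medians and red points an adjusted p under 0.05. Only Gngt2 and Cx3cr1 of the genes drawn are red, and the 10 genes lie between -0.29 and 0.19.

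Several relatives had the pattern of Arrb2 and Grk6 across numbers; they were chosen after their values were seen. Gpsm3, a G protein modulator of leukocytes, had 133, 151 and 287 CPM with vehicle and 143, 155 and 304 CPM with DEK. Rgs14 had 55.9, 61.5 and 114 CPM with vehicle and 56.7, 67.8 and 133 CPM with DEK, and Rgs19 had 150, 158 and 224 CPM with vehicle and 158, 159 and 214 CPM with DEK. Rgs10 went the other way, with 158, 183 and 98.4 CPM with vehicle and 159, 116 and 83.2 CPM with DEK. In each of these 4 genes number 3 stood apart from numbers 1 and 2 of both groups. Over all genes tested, the median absolute shift of number 3, averaged over both groups, was 0.34 in log2 CPM. The libraries numbered 3 had a higher share of neutrophil markers, given above, and differed in other cell type shares, given below. The part of these cell types in the levels of the 4 genes was not tested.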

How the data were processed

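Read counts per gene were deposited by the authors for 6 libraries. Per the file headers, featureCounts 1.6.1 summed exon reads by gene identifier with an mm10 annotation. Its command sets no strand, pair or overlap option, although per the labels' protocols the kit was stranded, and the alignments were of lane 6. Trim Galore, STAR, edgeR and HTSeq stand in the submitters' processing notes, and HTSeq is not in the header. The exon length used for RPKM is also the authors' deposited column. Libraries were matched to columns by their label numbers, and 0 columns were left unmapped.

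The software was edgeR 4.0.16, DESeq2 1.42.0 and limma 3.58.1, run under R 4.3.3. Genes passing filterByExpr (13803 of the 18049 with a read) were scaled by TMM and tested with edgeR's quasi-likelihood test, robust and two-sided, at an adjusted p of 0.05 (Benjamini-Hochberg, all tested genes). CPM and RPKM use TMM-scaled totals, and log2 CPM a prior count of 2. Depth was 34875736 to 49128378 counts per library, and reads carry no molecular identifiers.

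Replicate numbers were checked for pairing: deviations from the group means correlated across genes with 0.55, 0.56 and 0.80 for equal numbers 1, 2 and 3, above the minimum of 0.1, so the block was used as well. Unequal numbers 2 (vehicle) and 1 (DEK) gave 0.52, and 1 (vehicle) and 2 (DEK) gave 0.41. Since both libraries numbered 3 stood apart, numbers 1 and 2 deviate together from their group means whether or not they are paired. The check therefore could not tell whether numbers 1 and 2 are paired. The fitted biological coefficient of variation fell from 33.1% to 13.1% with the block. Of the 10 genes, 8 share no 50-base stretch with transcripts of other genes in GENCODE M21, on either strand. Gnb2 shares 1.93% with Epo and Grk6 1.95% with the unverified transcript 5430434F05Rik.

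The members, lists and motifs were chosen with earlier results of these data known. Genes were named by rule: the 10 members, pathway genes called in either fit (up to 6 per list), the lowest unblocked p of each list, and the 2 best-correlated genes of each member. Gpsm3, Rgs14, Rgs19, Rgs10, Adrbk1, Gng10, Gnai1, Abi3, Kit, Cd3e, Ccr9, Ccrl2 and Gng7 fall outside that rule and were chosen after their values were seen. The same holds for the markers Nkg7, Cd79b, Mpo and Gfi1 and for the other single stem and progenitor markers named. Promoter sequences come from RefSeq on GRCm38.p6, which has entries for 6 of the 10 genes. Alternatives were other scalings and tests, no filter on low counts, the block, and leaving out each library or each replicate number.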

Additional observations from a re-analysis of the deposited data

How the results depend on the processing

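The count of 0 of the 10 genes called held under the block, both other scalings, DESeq2, limma-voom, no filter and each library or number left out. With the replicate block, standard errors of the 10 genes were 0.09 to 0.12 in place of 0.12 to 0.65, and the block changed no call of a gene other than Gngt2 and Cx3cr1 among those tested in the pathway. Over all genes, 0 were called without a block, 177 with the replicate block and 58 by DESeq2. Leaving out single libraries or numbers gave 0 to 168 called genes without a block, the highest without both libraries numbered 3, and 1 without DEK library 3. With the block, it gave 0 to 641 (181 without number 1, 0 without number 2, 641 without number 3). Pathway genes called were 2 with the replicate block, 0 to 2 over the left-out libraries and numbers without it (2 without number 3) and 0 to 9 with it (3 without number 1, 9 without number 3). Direction was compared across the settings for the 10 genes, none of which was called in any of them. It changed in at least 1 setting for Grk6, Arrb2, Gnb1, Pik3cg and Rgs2. The log2 fold change of Grk6 was -0.0084 under upper-quartile scaling, ran from -0.19 to 0.21 over the left-out libraries and numbers, and from -0.018 (without number 2) to 0.073 with the block, at -0.0022 without number 3. The same ranges without a block were -0.65 to 0.89 for Arrb2, -0.010 to 0.12 for Gnb1, -0.0064 to 0.15 for Pik3cg and -0.49 to 0.013 for Rgs2, and with the block -0.0026 to 0.15 for Pik3cg. The cause was not tested. No gene of the 10 had under 4439 reads in a library, and what limited the precision was not tested.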

Other observations

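Cell type lists were read for their content only. Monocyte and macrophage markers took 0.622 and 0.643% of counts in the libraries numbered 3 and 0.799 to 0.960% in the others, and eosinophil markers took 0.305 and 0.456% against 0.841 to 1.45%. Basophil and mast cell markers took 0.108 and 0.116% against 0.219 to 0.349%, B cell markers 0.0106 and 0.0120% against 0.0291 to 0.0352%, and T and NK cell markers 0.0136 and 0.0182% against 0.0181 to 0.0198%. Erythroid markers took 0.218 and 0.375% against 0.0732 to 0.102%. Of the 10 erythroid markers, 3 globin genes were at 0 in every library.

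With the replicate number as a block and without both libraries numbered 3, 9 of the 91 pathway genes were called, in a fit that called 641 of 13809 genes (4.64%). Among those lower with DEK were the receptors Ccr3 and Ccr9 and the gamma subunit Gng7, at 1.59, 1.71 and 1.71-fold (adjusted p = 7.37e-06, 8.82e-06 and 0.0136, edgeR). The genes higher with DEK were Cx3cr1, Ccrl2, Pik3r6, Gngt2 and Gpsm2, at 1.61, 1.55, 1.52, 1.45 and 1.40-fold (adjusted p = 1.26e-06 to 0.0196, edgeR). That fit has 4 libraries, too few to give each gene its own spread, so the spread was borrowed mostly from all genes. Its p-values therefore say little of the spread of each single gene. These genes were chosen after their values were seen.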
